A study of Homo sapiens with 5 samples.

Results

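The 46 genes described here had a nascent RNA level at least 4 times as high in HEK293T cells with a CAG landing pad as in HEK293T cells with a PGK landing pad. They were chosen on these same libraries, from 20001 genes with an identifier in the deposited table. Levels were CPM (a gene's count scaled by its library's total), averaged per line, and a gene was kept when (CAG + 0.5) / (PGK + 0.5) was 4 or more and the CAG mean was 5 CPM or more. Genes in 8 runs of rows and 1 single gene were left out by the same rule, which together took 3714 rows and 22 genes that otherwise met both levels. Every fold between the lines given below for the 46 genes is therefore a description of how they were chosen, with no test. The table does not pair identifiers with gene names and no name table used here holds Ensembl identifiers, so genes are given by identifier, and neither their functions nor markers of cell types were analysed.

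The 5 libraries were PRO-seq libraries, 2 of the PGK line and 3 of the CAG line. HEK293T cells derive from human embryonic kidney and express large T antigen of SV40. Per the labels both lines were monoclonal, with an engineered locus, the landing pad, into which DNA can be placed. In one line the pad held the PGK promoter, taken from a glycolysis gene, and in the other the CAG promoter, a strong composite promoter. No treatment or time point is given, and it is not stated whether replicates came from separate cultures. Promoter and clone cannot be told apart. Library totals ran from 3712118 counts in PGK replicate 2 to 5864178 in CAG replicate 3.

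In PRO-seq, engaged RNA polymerases are allowed to add a few biotin-labelled nucleotides to the RNA they are making, and the labelled RNA is captured and sequenced. The reads therefore come from polymerases at work on a gene at the time of the assay, and the breakdown of finished RNA does not lower them. A gene that is silent in a cell carries no elongating polymerase over its body and yields few or no reads, whereas an active gene yields reads along its length. CPM is not divided by gene length here, so it tells how many reads a gene had and does not rank genes by how strongly they were transcribed.

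The 46 genes were sparsely read in the PGK line and moderately read in the CAG line. Their PGK means ran from 0 to 40.2 CPM with a median of 1.41, and their CAG means ran from 5.04 to 174 CPM with a median of 15.4. The 13400 genes with enough counts to be tested had median levels of 46.2 CPM in the PGK line and 47.2 in the CAG line. In the PGK line 0 of the 46 genes lay above that median, and in the CAG line 8 did. All 46 passed the filter on low counts. It asks for enough counts in as many libraries as the smaller line has, so genes could pass through the CAG libraries alone.

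The median ratio by the rule was 5.69, where the median over all tested genes was 1.02 and their 95th percentile 1.96. Of the 46 ratios, 16 lay between 4 and 5, 16 between 5 and 8, 6 between 8 and 16, and 8 were 16 or more. The CAG libraries lay above both PGK libraries for all 46 genes, as they did for 33.2% of all tested genes. In edgeR's fit all 46 were also called higher (adjusted p under 0.05), a call made for 22.7% of tested genes. Both counts follow from the choice and carry no further evidence. The closest approach of the lines was a lowest CAG library at 3.22 times the highest PGK library.

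**Figure D1:**
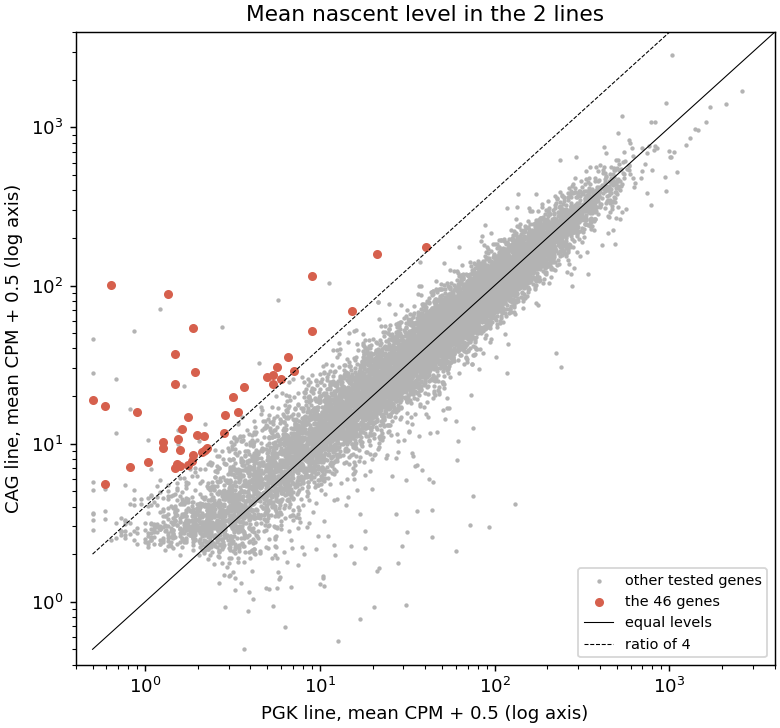
Mean nascent level of each tested gene in the PGK line (horizontal, 2 libraries) and the CAG line (vertical, 3 libraries), as CPM + 0.5 on log axes, with the 46 genes in red. Most of the red points lie at the left, since their median PGK level was 1.41 CPM, and grey points above the dashed line were under 5 CPM in the CAG line or in rows left out.

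Summed over the 46 genes, the level was 175 and 169 CPM in the PGK libraries and 1393, 1388 and 1401 CPM in the CAG libraries. The sums were thus 172 ± 4.39 CPM in the PGK line (SD, n = 2) and 1394 ± 6.84 CPM in the CAG line (SD, n = 3), a ratio of 8.09. The libraries of a line had almost the same sum although PGK replicate 2 held the fewest reads of all. In the CAG line the 5 genes with the most reads supplied 45.5% of the sum. Together the 46 genes took 0.139% to 0.140% of a CAG library.

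For 5 of the 46 genes the PGK libraries held at most 3 counts in all. The largest ratio was that of ENSG00000179455, with PGK counts of 0 and 1 and CAG counts of 492, 518 and 557. Its level was 99.8 ± 4.39 CPM in the CAG line (SD, n = 3). From summed counts the CAG level was 925 times the PGK level, with an exact 95% interval of 166 to 36567. That interval, like those below, was computed from counts summed over the libraries of a line and covers counting error only. The single PGK count leaves the size of this fold open over a wide range, while the 3 CAG libraries differed by no more than 1.09 times.

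ENSG00000198681 was not counted in either PGK library (0 and 0) and had CAG counts of 101, 89 and 99 (18.5 ± 2.01 CPM, SD, n = 3). Set against an assumed limit of 3 counts over the PGK line, which is 0.323 CPM, the CAG level was 56.9 times as high. That value leaves out the counting error of the CAG reads and is not comparable with the exact intervals. ENSG00000198185 had PGK counts of 1 and 0 and CAG counts of 73, 94 and 98, a ratio of 156 with an interval of 27.8 to 6203. Neither gene was detectable above that limit in the PGK line, and both were read in every CAG library. The other genes of this kind had fewer CAG reads. ENSG00000185404 had 1 and 0 counts against 29, 16 and 35, a ratio of 47.2 (interval 8.24 to 1889). ENSG00000169871 had 2 and 1 counts against 27, 36 and 42, a ratio of 20.7 (interval 6.88 to 102).

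A second kind of gene had a few counts left in each PGK library and a high level in the CAG line. ENSG00000188511 had PGK counts of 5 and 3 and CAG counts of 421, 443 and 513. The line means were 0.852 ± 0.0619 CPM (PGK, n = 2) and 87.5 ± 1.08 CPM (CAG, n = 3), and the ratio was 102 (interval 51.4 to 236). ENSG00000101463 had 8 and 5 counts against 272, 271 and 297, with line means of 1.39 ± 0.0610 CPM (PGK, n = 2) and 53.5 ± 2.64 CPM (CAG, n = 3). The ratio was 38.2 (interval 22.2 to 72.0). In both genes the libraries of a line lay close together, and the lines were far apart.

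ENSG00000011677 had PGK counts of 8 and 2 and CAG counts of 177, 173 and 223, a ratio of 33.8 (interval 18.3 to 70.9). ENSG00000150051 had 3 and 1 counts against 73, 72 and 97, a ratio of 35.7 (interval 13.8 to 132). ENSG00000231672 had 5 and 4 counts against 104, 113 and 155, a ratio of 24.4 (interval 12.7 to 53.8). The intervals of these genes overlap, so that their order by fold is not settled at this depth. ENSG00000006757 followed with 7 and 6 counts against 134, 146 and 156, a ratio of 19.8 (interval 11.5 to 37.5).

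Other genes were well read in both lines, and their folds are known more closely. ENSG00000162687 had PGK counts of 49 and 31 and CAG counts of 570, 546 and 690. The line means were 8.56 ± 0.302 CPM (PGK, n = 2) and 115 ± 4.73 CPM (CAG, n = 3), a ratio of 13.3 (interval 10.7 to 16.9). ENSG00000104267 had 107 and 82 counts against 767, 760 and 954, or 20.6 ± 2.07 CPM (n = 2) against 157 ± 5.39 CPM (n = 3). Its ratio was 7.75 (interval 6.68 to 9.03). Both genes were read in every library of both lines, at a lower level in the PGK line.

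The gene with the most reads of the 46, ENSG00000178538, was among those with the smallest ratios. Its PGK counts were 211 and 158 and its CAG counts 836, 881 and 1031. The line means were 40.2 ± 3.37 CPM (PGK, n = 2) and 174 ± 2.56 CPM (CAG, n = 3), a ratio of 4.40 (interval 3.94 to 4.92). ENSG00000162733 had 88 and 51 counts against 330, 319 and 434, a ratio of 4.60 (interval 3.85 to 5.53). ENSG00000154277 had 50 and 30 counts against 240, 260 and 301, a ratio of 5.91 (interval 4.69 to 7.54). ENSG00000180917 had 32 and 24 counts against 178, 180 and 191, a ratio of 5.79 (interval 4.39 to 7.76).

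Between these extremes lay genes with CAG means of 7.13 to 30.0 CPM. ENSG00000104324 had PGK counts of 8 and 4 and CAG counts of 58, 78 and 91. ENSG00000177459 had 4 and 3 counts against 50, 44 and 59, and ENSG00000197971 had 8 and 3 against 65, 49 and 72. In these genes the lowest CAG library lay at 6.83 times the highest PGK library or more. ENSG00000175894 had 4 and 5 counts against 54, 50 and 57, ENSG00000163053 had 3 and 2 against 33, 27 and 54, and ENSG00000101977 had 4 and 3 against 52, 29 and 59. ENSG00000154188 had 6 and 4 counts against 54, 36 and 45, and ENSG00000133106 had 9 and 5 against 59, 49 and 61. In each of these genes both PGK libraries lay below the lowest CAG library. More PGK reads were counted for ENSG00000157680 (19 and 11 counts against 100, 121 and 133), ENSG00000162105 (18 and 8 against 82, 116 and 106) and ENSG00000180938 (38 and 13 against 161, 140 and 170).

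The other 18 genes had ratios of 4.03 to 5.33. Their PGK totals were 9 to 63 counts (median 16) and their CAG totals 101 to 444 counts (median 155). ENSG00000127415 had the largest ratio of these, with PGK counts of 29 and 14 and CAG counts of 136, 138 and 133. In ENSG00000134716, with 8 and 7 counts against 39, 52 and 79, the CAG libraries differed by 1.68 times, and ENSG00000267561, with 5 and 6 against 45, 26 and 35, by 1.78 times. Each of the 18 genes had at least 9 PGK counts, so reads were present in both lines.

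**Figure D2:**
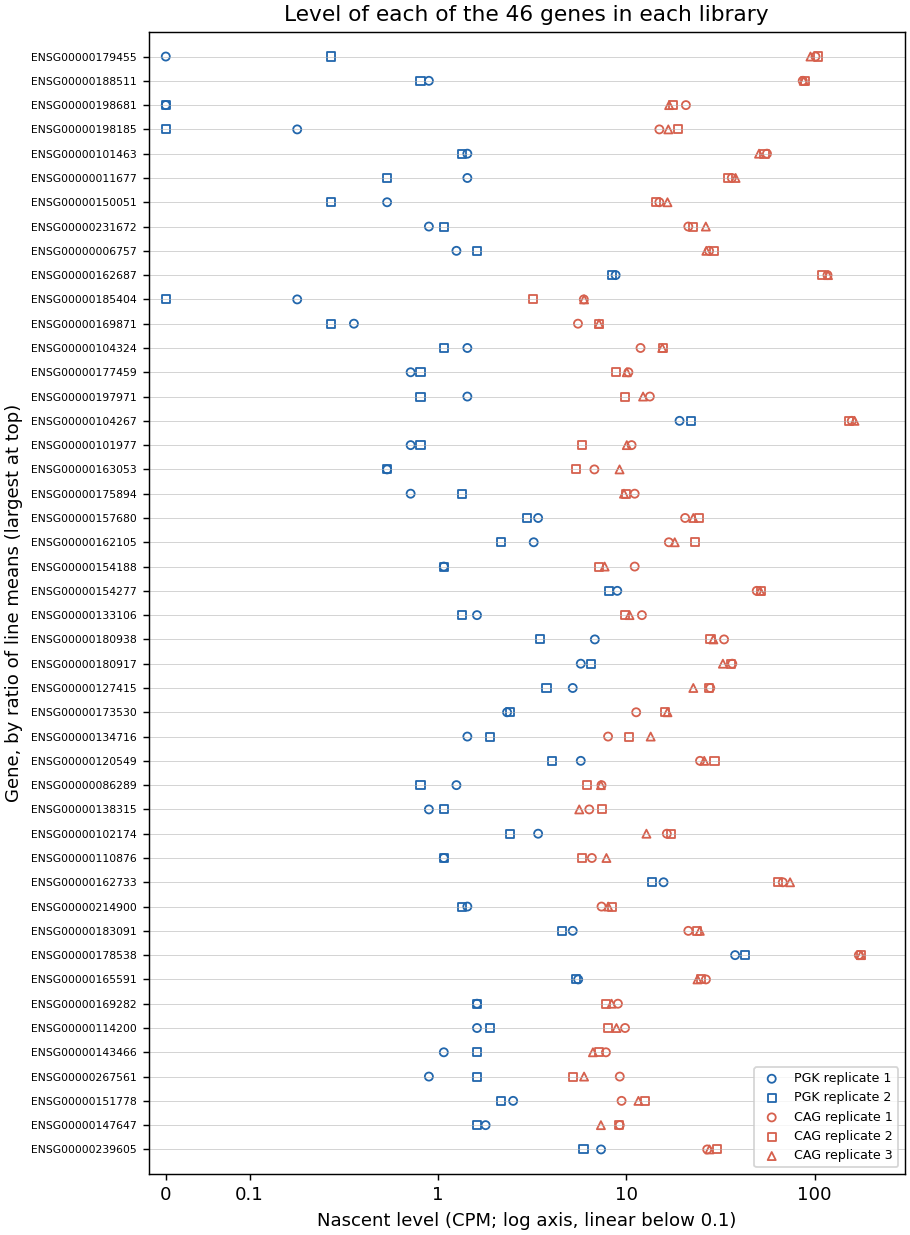
Level of each of the 46 genes in each of the 5 libraries, in CPM on a log axis that is linear below 0.1, ordered by the ratio of line means. The 2 PGK libraries (blue) and the 3 CAG libraries (red) do not overlap in any row, which the choice of genes favours, and the gap is widest for ENSG00000179455 at the top.

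How precisely a fold is known depended mainly on the PGK counts. The PGK total was 0 to 3 counts for 5 genes, 4 to 10 for 12, 11 to 20 for 12, 21 to 50 for 8 and over 50 for 9. For the 16 genes with 1 to 10 PGK counts, the upper end of the interval was a median 4.96 times the lower end, and for the 17 genes with over 20 counts it was 1.83 times. The interval lay wholly above 4 for 27 of the 45 genes that have one. For the others a fold under 4 lies within counting error. In ENSG00000011677, ENSG00000198185 and ENSG00000185404 a single library moved the edgeR fold by over 1.5 times: without PGK replicate 1 the log2 fold change was 5.94, 9.34 and 7.62, against 5.03, 6.97 and 5.25 with all libraries. Without PGK replicate 2 the last 2 of these genes stood at 6.38 and 4.66. ENSG00000179455 stood at 8.33 without PGK replicate 1 and 12.1 without PGK replicate 2, against 9.53, values that rest on a single PGK count.

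The genes near the limits of the rule differed little across them. Just inside the ratio of 4 lay ENSG00000239605 at 4.03, ENSG00000147647 at 4.12 and ENSG00000151778 at 4.14. Just outside lay ENSG00000135636 at 3.98, ENSG00000162877 at 3.95 and ENSG00000139410 at 3.88. Just inside the minimum CAG level were ENSG00000185404 at 5.04 CPM, ENSG00000138315 at 6.46 and ENSG00000169871 at 6.63. Just outside it were ENSG00000163219 at 4.96 CPM, ENSG00000185339 at 4.95 and ENSG00000102524 at 4.90. Outside the left-out rows, 40 genes had a ratio of 3 to 4 at 5 CPM or more, and 24 had a ratio of 4 or more at a lower CAG level.

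The spread among CAG libraries was not part of the rule. The highest CAG library exceeded the lowest by a median 1.19 times in the 46 genes. It did so by 1.12 times in the 10780 other tested genes within the same range of CAG levels. Within that range levels were not matched: the CAG median was 15.4 CPM for the 46 and 47.2 for all tested genes. The readings in this paragraph therefore do not compare genes of equal level. Set against sampling noise, the spread had a median of 0.813 in the 46 genes and 0.881 in the others. Sampling noise alone gives a mean of 1, but with 3 libraries its median is lower. Medians under 1 therefore do not mean a spread below sampling noise. A spread over 3 was found for 3 of the 46 genes and for 10.3% of the others. They were ENSG00000101977 at 4.01, ENSG00000134716 at 3.74 and ENSG00000267561 at 3.39. No CAG library stood out across the 46: the highest value lay in replicate 1 for 18 genes, in replicate 2 for 16 and in replicate 3 for 12.

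Between the PGK libraries, replicate 2 lay above replicate 1 for 19 genes and below it for 26, with 1 gene at 0 in both. Of all tested genes, 38.7% lay higher in replicate 2. Single genes differed more widely: the level in replicate 2 was 0.376 times that in replicate 1 for ENSG00000011677, 0.514 times for ENSG00000180938 and 1.88 times for ENSG00000175894.

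The levels of the rule could be taken in some libraries and its ratio read in others. The limits and left-out rows stayed as given, and all libraries came from the same PGK and CAG lines. These readings therefore describe how alike the libraries of a line were and are no independent test of the genes. From replicate 1 of each line alone, the rule took 52 genes, of which 43 are among the 46. In the other 3 libraries, the median ratio of these 52 genes was 5.87, against 5.99 in the libraries that chose them. There 43 of the 52 again had a ratio of 4 or more and 51 had a ratio of 2 or more. The remaining gene, ENSG00000165525, is not among the 46 and had a ratio of 6.71 inside the choice and 0.942 outside it. Its CAG counts were 4250, 643 and 812, so that only CAG replicate 1 was high. With the choice made in the other 3 libraries, 61 genes were taken, 42 of them among the 46. In replicate 1 of each line their median ratio was 4.49 against 5.30, 40 had a ratio of 4 or more, and 57 had 2 or more. Of the 61 genes, 44 had a smaller ratio outside the choice than inside it, and of the 52 genes 27 did.

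**Figure D3:**
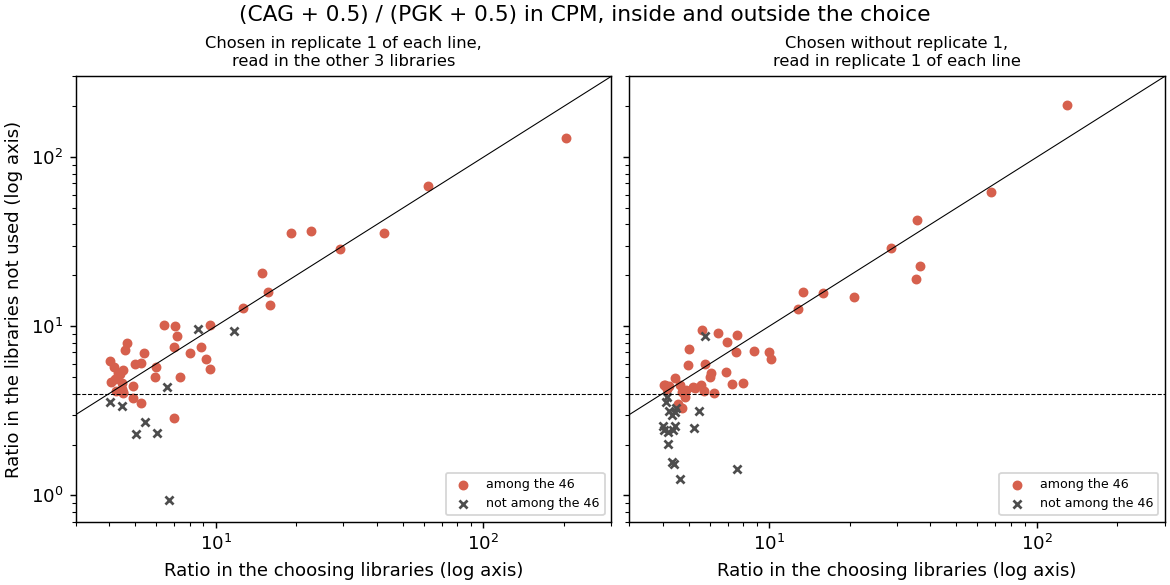
Ratio (CAG + 0.5) / (PGK + 0.5) of each gene in the libraries that chose it (horizontal) and in the libraries not used (vertical), on log axes, with the solid line at equal values and the dashed line at 4. In the left panel 43 of 52 genes lie at or above the dashed line and in the right panel 40 of 61. All libraries came from the same PGK and CAG lines, so the panels describe how alike the libraries were and are no independent test.

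The 46 genes were spread over the row order of the table, whose meaning is not stated in the sources used here. The distance between consecutive genes had a median of 204 rows and a maximum of 2680. No 2 of the 46 were next to each other among tested rows. They came within 10 rows of each other in 4 pairs. ENSG00000163053 and ENSG00000185404 lay 3 rows apart with 1 tested gene between them. ENSG00000104324 and ENSG00000177459 lay 6 rows apart, ENSG00000147647 and ENSG00000154188 lay 7 apart, and ENSG00000133106 and ENSG00000151778 lay 6 apart, each with 4 tested genes between them.

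The window of 500 rows with the most of the 46 genes, picked out after the rows were seen, held them from row 8095 to row 8523. These rows held 8 of the 46 genes among 314 tested genes, which are 2.89% of the tested genes outside the left-out rows. The other 306 tested genes there had a median log2 fold change of -0.04. Of them, 33 (10.8%) were called higher by edgeR and 59 were called lower. Over all tested genes, which include the left-out rows, 22.7% were called higher and 20.7% lower. The 8 genes thus lay among genes with a median shift of -0.04, some of which were called in either direction. The difference between these shares was not tested.

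**Figure D4:**
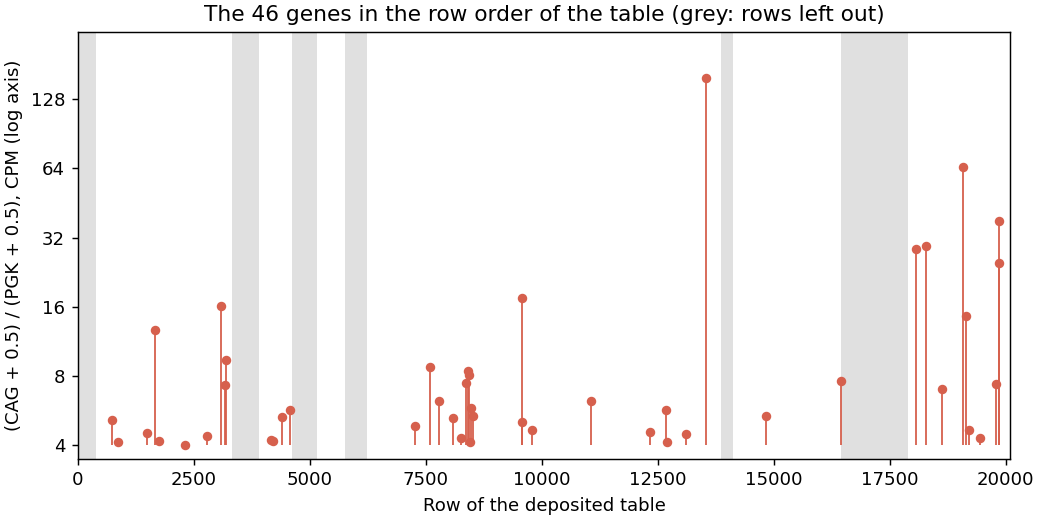
Ratio of each of the 46 genes (vertical, log axis) at its row in the deposited table (horizontal), with the rows that the rule leaves out in grey. Genes are found along most of the order, with 8 between rows 8095 and 8523, and the largest ratio is that of ENSG00000179455.

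Genes beside the 46 in row order did not meet the rule themselves, and their own values are read here. Within 2 tested rows on either side lay 181 other tested genes, of which edgeR called 42 (23.2%) higher and 39 (21.5%) lower. The corresponding shares of all 13400 tested genes were 22.7% and 20.7%. That reference set, also used below, includes the left-out rows, where none of the neighbours lay. Shares over the 10860 tested genes outside those rows were not computed. The median log2 fold change of the 181 neighbours was 0.01. Rises of at least 2-fold were found in 18 neighbours (9.94%), against 5.22% of all tested genes. Among the 18 was ENSG00000165525, with PGK counts of 723 and 526 and CAG counts of 4250, 643 and 812. Its rise rests on CAG replicate 1. ENSG00000166206, also among them, was not called. At 1 tested row the share called higher was 26.4% and at 2 rows 20.0%, and from 3 to 20 rows it ran from 17.4% to 27.2%. Leaving out genes that met the rule removes the largest rises at 5 CPM or more from these counts. Whether reads of overlapping genes or of opposite strands were kept apart is not given in the sources used here, so neighbours may share reads.

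**Figure D5:**
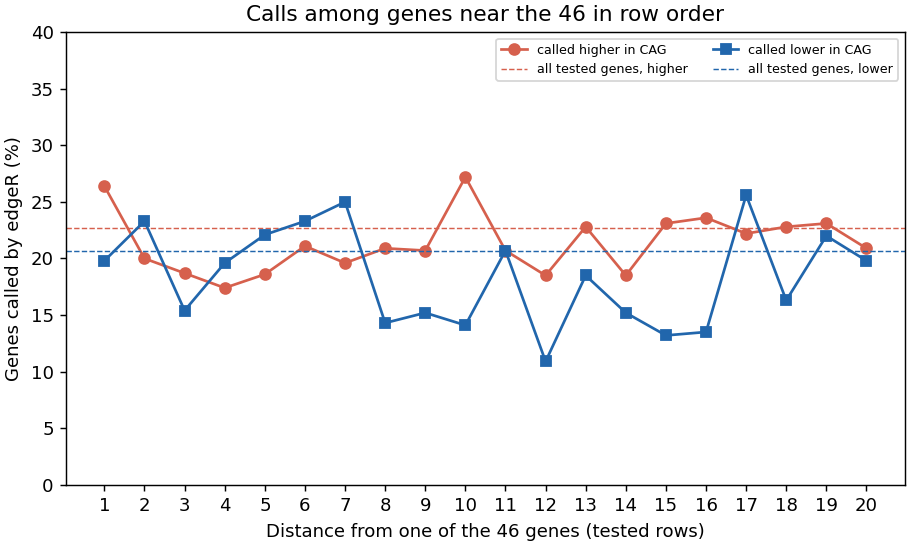
Share of genes called higher (red) and lower (blue) in the CAG line by edgeR, in percent, at 1 to 20 tested rows from one of the 46 genes. Dashed lines mark all tested genes, left-out rows included, at 22.7% and 20.7%. The red share starts at 26.4% at 1 row and stays between 17.4% and 27.2% at the other distances.

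Of the 46 genes, 22 had no neighbour called higher, 8 had no neighbour called either way and 28 had at least 1 called lower. Over all tested genes, 22.7% were called higher, 20.7% lower and 43.4% either way. How many other tested genes have such neighbours was not counted, so these counts are not read as a trait of the 46. All neighbours were called higher for 3 genes, ENSG00000134716, ENSG00000127415 and ENSG00000120549. ENSG00000179455, ENSG00000188511, ENSG00000006757 and ENSG00000150051 each had 4 neighbours, of which 0 were called. Among those of ENSG00000179455 was ENSG00000166206, with a log2 fold change of 1.29 (SE 0.54, edgeR adjusted p = 0.0546). Large rises were thus found beside genes at which edgeR made no call, which does not show that those genes were equal in the lines.

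A rise of at least 4-fold was found in 4 neighbours, all under 5 CPM in the CAG line. The share of all tested genes with such a rise is not given here. With 0 to 2 counts in each PGK library, the 4 genes could pass the filter on low counts through the CAG libraries alone. They were picked for the size of their rise, so their folds and p-values are a description. ENSG00000197172, beside ENSG00000011677, was listed at 0 and 0 for the PGK line and had CAG counts of 15, 14 and 20 (edgeR adjusted p = 5.76e-06). ENSG00000135899, the tested gene between ENSG00000163053 and ENSG00000185404, had 2 and 2 counts against 16, 25 and 21, a log2 fold change of 3.10 (SE 0.54, edgeR adjusted p = 3.83e-05). All 3 genes of that small run were thus higher in every CAG library. ENSG00000184898, within 2 tested rows of ENSG00000183091, had 1 and 2 counts against 23, 24 and 25 (log2 fold change 3.70, SE 0.54, edgeR adjusted p = 4.29e-06). ENSG00000147614, next to ENSG00000104267, had 2 and 0 counts against 11, 13 and 18 (log2 fold change 3.47, SE 0.69, edgeR adjusted p = 0.000201).

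Falls of at least 2-fold were found in 5 neighbours. These too were picked for the size of their change, and their p-values are a description. Those with few CAG counts could pass the filter through the PGK libraries alone. ENSG00000102287 lay next to ENSG00000011677 and had PGK counts of 32 and 19 and CAG counts of 3, 5 and 7. The log2 fold change was -2.52 (SE 0.38, edgeR adjusted p = 5.88e-06), in a run of rows where ENSG00000011677 and ENSG00000197172 were higher in every CAG library. ENSG00000165186, next to ENSG00000102174, had 55 and 38 counts against 2, 5 and 5, a log2 fold change of -3.70 (SE 0.35, edgeR adjusted p = 3.59e-09). ENSG00000198846 stood directly beside ENSG00000178538 and fell from 26.6 ± 1.95 CPM (n = 2) to 7.57 ± 0.547 CPM (n = 3), a log2 fold change of -1.83 (SE 0.17, edgeR adjusted p = 3.86e-09). ENSG00000203930 and ENSG00000163486 had log2 fold changes of -2.22 and -1.01. In ENSG00000163486 the PGK libraries stood far apart, at 554 and 703 counts although replicate 2 was the smaller library. Neighbours in the table could thus differ between the lines in opposite directions.

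The level of the surroundings was also read over 10 tested genes on each side, as the median of their log2 fold changes relative to that of all tested genes. It lay above 0.2 for 7 of the 46 genes (15.2%), below -0.2 for 4 and within 0.2 for 35. Among the 10814 other tested genes outside the left-out rows, 9.08% lay above 0.2 and 6.76% below -0.2. The highest surroundings were those of ENSG00000120549 at 0.72, ENSG00000134716 at 0.68 and ENSG00000127415 at 0.49. ENSG00000133106 and ENSG00000151778 shared surroundings at 0.48. In contrast, ENSG00000180938 stood in surroundings at -0.49 and ENSG00000198185 at -0.41, where 3 of 4 neighbours of each were called lower. With the surrounding level taken out, 42 of the 46 genes kept a log2 fold change of at least 2. The other 4 were ENSG00000120549 at 1.65, ENSG00000151778 at 1.73, ENSG00000165591 at 1.80 and ENSG00000127415 at 1.97.

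With the lines exchanged, the same levels and left-out rows gave 43 genes that were at least 4 times as high in the PGK line. Their median ratio was 7.59 and their largest 32.7, where the 46 genes had a median of 5.69 and a largest value of 158. A ratio of 8 or more was found for 18 of those 43 genes and for 14 of the 46. Within 2 tested rows of the 43 genes, edgeR called 45 of 167 neighbours lower (26.9%) and 25 higher (15%). Over all tested genes, which include the left-out rows, 20.7% were called lower and 22.7% higher. None of these differences between the 2 sets was tested.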

How the data were processed

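PRO-seq counts of 5 HEK293T libraries (2 PGK, 3 CAG) were used, grouped by sample title. The deposited table holds raw, unscaled counts for each Ensembl gene. The submitters' processing notes name featureCounts 2.0.3, HISAT2 2.2.1, Bowtie2 2.5.1, fastp 0.23.2, UMI-tools and cutadapt, and the build hg19. What each tool did, which annotation and strand setting applied and which part of a gene was counted is not given in the sources used here. Of 20019 rows, 18 had no identifier and held at most 0.000448% of a library. They stayed out of the tests, but not out of the totals behind CPM, as the rule prescribes.

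CAG was tested over PGK with edgeR's quasi-likelihood test (edgeR 4.0.16, R 4.3.3), TMM scaling, filterByExpr defaults (minimum count 10, minimum total 15) and Benjamini-Hochberg adjustment over 13400 genes. It called 5818. Standard errors were derived from the fold change and its F statistic. Ratios of summed counts have exact (Clopper-Pearson) 95% intervals. The p-values reflect no more than the spread among these libraries, possibly technical.

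The genes, lists and windows were chosen with earlier results of these data known. Counts per library are given for the 25 largest ratios and the 10 highest CAG means, for genes at the limits of the rule and for neighbours that changed most. Gene lists and cell type markers need names and were not run. Alternatives were limma-trend (limma 3.58.1), DESeq2 1.42.0, its size factors in edgeR, no filter, the replicate number as a block, leaving out each library, and other limits of the rule. The readings over 10 genes on each side, over rows 8095 to 8523 and in libraries outside the choice were added after seeing the data.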

Additional observations from a re-analysis of the deposited data

Results flagged for a closer look

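A few counts lay in data that no comparison used: the 18 rows without an identifier held 95 counts over the 5 libraries. With under 4 libraries in each line, outlying libraries were not tested for.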

How the results depend on the processing

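The number of genes that met the rule was 46. It became 86 with a ratio of 3 or more and 30 with a ratio of 5 or more, both by construction. It was 55 with 0.1 and 35 with 1 in place of 0.5 added to the levels, and 45 to 62 with 1 library left out, largest without PGK replicate 1, the deeper of the PGK libraries. With 1 library left out, 42 to 45 of the 46 genes met the rule. All 46 genes were called higher under each of the 10 alternative fits. The 280 results for the 28 genes of the naming rule kept direction and call. Both follow largely from the choice of genes on these libraries and carry no further evidence. Over all genes in a fit, 2201 (DESeq2) to 3129 (no filter) were called higher, against 3046 in edgeR's fit above. The folds of the 28 genes did not all hold in size. For 8 of the 28, each with at most 10 PGK counts, an alternative moved the fold by over 1.5 times. The log2 fold change of ENSG00000198681, with no PGK count, was 5.55 in limma-trend against 9.52, that of ENSG00000198185 ran from 5.15 to 9.34, that of ENSG00000185404 from 3.45 to 7.62 and that of ENSG00000179455 from 7.58 to 12.1. ENSG00000011677, ENSG00000150051, ENSG00000169871 and ENSG00000163053 ran from 4.65 to 5.94, 4.29 to 5.63, 3.28 to 4.43 and 2.95 to 3.83. The 81 neighbours called (42 higher, 39 lower) became 52 in DESeq2 on the same tested genes (27 higher, 25 lower). Over all tested genes the calls likewise went from 5818 to 4054 in DESeq2, and the cause was not tested. With 1 library left out, 63 to 81 neighbours were called, and over all tested genes 4754 to 5689. With 1 tested row on each side, a smaller window by construction, 42 of 91 neighbours were called. With the replicate number as a block, 63 neighbours were called, and over all tested genes 4667, against 5818 without it. The labels do not tie replicate numbers to a shared batch, and libraries with the same number had deviations with correlations of 0.04 and -0.07, so no pairing was assumed. With 5 or 20 tested genes on each side, the surroundings lay above 0.2 for 8 and 7 of the 46 genes. Depth limits the folds of genes with few PGK counts.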
